A study of Mus musculus with 18 samples.

Results

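Among 42403 regions bound by GATA6 during doxycycline (Dox) induction of mouse embryonic stem (ES) cells, 2493 regions (5.88%) formed the class of Late GATA6-only regions in facultative heterochromatin. These regions were chosen by 4 measured classes of the deposited table, namely Late GATA6 binding, no called SOX17 peak, no called peak of OCT4, SOX2 or ESRRB (the pluripotency transcription factors, PTFs), and a histone state of facultative heterochromatin in ES cells. They made up 17.5% of the 14243 Late regions and 51.0% of the 4887 Late regions lying in facultative heterochromatin. Because GATA6 signal, SOX17 and PTF peaks and histone marks selected the regions, those values are given below as a description and were not tested.

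The series itself consists of 18 MNase-seq libraries of KH2 ES cells (C57BL/6 x 129/Sv background), in 6 groups of 3, taken before Dox (d0) and after 8, 16, 24, 48 and 96 h in Dox at 1 µg/mL. All groups carry a Dox-inducible Gata6 transgene tagged with 3xHA, including the untreated d0 cells, and all were grown with serum and LIF on mouse embryonic fibroblast feeders, which the methods say were removed by adsorption before crosslinking for ChIP-seq. The methods describe 2 clones of this line, so the cells model induction in those clones only. No value of an MNase library was among the columns analysed here. The table gives, for each region, its position, its classes, its motifs and 1 value per time point from the authors' ChIP-seq and ATAC-seq of the same induction. Those values carry no replicate and no count, so depth is unknown, they have no error across cultures, and fewer bound cells cannot be told apart from less binding per cell. According to the methods, GATA6 ChIP-seq at d0 had 1 chromatin preparation and most other ChIP-seq conditions had 2. ATAC-seq had 3 cultures, or 2 at 96 h. Each GATA6 value at d0, and each change from it, therefore rests on 1 preparation and does not establish binding before Dox.

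GATA6 is a zinc-finger transcription factor that recognises GATA letters and drives the primitive endoderm (PrE), the extraembryonic layer that lines the blastocyst cavity. SOX17, an HMG-box factor, is switched on as PrE forms. OCT4, SOX2 and ESRRB maintain the pluripotent state from which the cells depart. Facultative heterochromatin is silent chromatin marked by H3K27me3, the mark deposited by the Polycomb PRC2 complex, and it can be opened when a lineage programme requires it.

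The sequence under these regions is shown first at the 5 members with the highest best score for the GATA6 matrix, since they hold the clearest form of the letters that GATA6 recognises. The score is the match score of the best hit in the region, as deposited. The stretches lie at chr13:99459667-99459709 (minus strand, intron of Map1b), chr7:112035851-112035893 (plus strand, intron of Usp47), chr17:62655891-62655933 (plus strand, in an intron, with Efna5 as the nearest protein-coding gene at 225298 bp), chr5:133856250-133856292 (plus strand, intergenic, 13738 bp from the pseudogene Gm7902) and chr4:155794017-155794059 (minus strand, intron of Ankrd65) of mm10. Capitals mark the 13 bases of the motif, and each sequence is read 5′ to 3′ on the strand of the motif, with 15 bases to each side.
Map1b intron: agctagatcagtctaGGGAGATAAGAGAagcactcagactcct
Usp47 intron: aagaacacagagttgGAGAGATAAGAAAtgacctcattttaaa
Efna5 region: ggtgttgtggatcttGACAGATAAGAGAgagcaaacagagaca
Gm7902 flank: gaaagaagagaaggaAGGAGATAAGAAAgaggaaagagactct
Ankrd65 intron: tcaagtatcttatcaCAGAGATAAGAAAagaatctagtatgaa

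Their scores were 15.2, 15.1, 15.1, 15.1 and 15.0, against a median of 9.76 (quartiles 8.35 and 11.9) over the 2233 members with a GATA6 motif. All 5 hold the letters AGATAAGA at the same place in the motif. High scores did not come with high GATA6 signal at each of them. The Efna5 region had 0.734 at d0 and 0.691 at 96 h, in units of authors' signal per kb of region, and its ratio to input at 96 h was 0.628. The Gm7902 region went from 0.723 at d0 to 4.40 at 96 h, with a ratio to input of 4.40.

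The following windows, which reach 100 bp to either side of the GATA6 summit, show 3 members with more than 1 copy of the core AGATAA, or TTATCT on the opposite strand, in capitals. They lie at chr14:51896099-51896299 (exon of Slc39a2, a zinc transporter gene, 2589 bp from its transcript start), chr7:112024991-112025191 (intron of Usp47, a deubiquitinase gene, 1435 bp from a transcript start) and chr14:65516616-65516816 (intergenic, 76334 bp from Elp3). The first and second belong to the 5 members with the highest GATA6 value at 96 h, and the last has 8 GATA6 motifs, the most of any member. All are printed on the plus strand.
Slc39a2 exon: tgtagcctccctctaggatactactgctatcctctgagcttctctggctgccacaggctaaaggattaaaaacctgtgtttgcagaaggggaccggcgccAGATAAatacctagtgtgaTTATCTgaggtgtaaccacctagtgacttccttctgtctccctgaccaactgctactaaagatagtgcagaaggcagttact
Usp47 summit: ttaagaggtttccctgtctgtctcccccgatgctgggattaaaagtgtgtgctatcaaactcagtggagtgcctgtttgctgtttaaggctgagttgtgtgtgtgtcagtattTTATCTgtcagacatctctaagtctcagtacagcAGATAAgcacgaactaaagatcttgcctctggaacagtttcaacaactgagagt
Elp3 flank: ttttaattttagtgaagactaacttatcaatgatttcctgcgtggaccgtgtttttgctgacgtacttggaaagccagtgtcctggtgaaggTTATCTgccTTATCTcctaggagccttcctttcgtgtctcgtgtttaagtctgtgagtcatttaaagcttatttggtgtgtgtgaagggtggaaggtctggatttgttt

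At the Slc39a2 exon, GATA6 signal per kb was 0.957 at d0, 0.764 at 8 h, 0.908 at 16 h, 1.46 at 24 h, 2.19 at 48 h and 8.36 at 96 h. At the Usp47 summit the same series was 1.31, 1.44, 1.29, 1.69, 1.72 and 3.89. The Elp3 flank reached 1.42 at 48 h and 1.27 at 96 h from 0.582 at d0, with a ratio to input of 1.05 at 96 h. The Slc39a2 and Usp47 regions were chosen for their 96-h value, so their high signal there says nothing about their motifs. At the Elp3 flank, chosen for its 8 motifs, the 96-h signal was close to input.

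Across all members, the median GATA6 signal stayed within 1.26-fold of input until 16 h and was highest at 96 h. The median signal per kb was 0.831 at d0, 0.830 at 8 h, 1.3 at 16 h, 1.25 at 24 h, 1.21 at 48 h and 2.33 at 96 h, where the lowest member had 0.315 and the highest 9.59. Input itself had medians between 0.663 and 1.04 across the time points, so the ratio to input is given as well. Its median was 1.02 at d0, 1.22 at 8 h, 1.26 at 16 h, 1.97 at 24 h, 1.86 at 48 h and 2.71 at 96 h. The 10th to 90th percentile range on the log2 scale ran from -0.98 to 1.22 at d0 and from 0.36 to 2.45 at 96 h, so the distributions overlapped. More than 2-fold over input was reached by 389 members (15.6%) at d0, by 1228 (49.3%) at 24 h and by 1767 (70.9%) at 96 h. Over all GATA6 regions these shares were 10.1%, 72.5% and 67.9%, and in Late GATA6-only regions of naive chromatin 79.3% passed at 96 h. The members' share at 96 h was therefore near the background.

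The time of the strongest GATA6 signal over input varied between members. The highest ratio to input fell at 96 h in 1163 members (46.7%), at 48 h in 369 (14.8%) and at 24 h in 508 (20.4%). In 160 members (6.42%) it fell at 16 h, in 140 (5.62%) at 8 h and in 153 (6.14%) at d0. The share at d0, before any Dox, was near those at 8 and 16 h, and each ratio is without replicate. Late was itself assigned from GATA6 signal over input, so these values cannot tell whether the name holds for a single member.

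**Figure D1:**
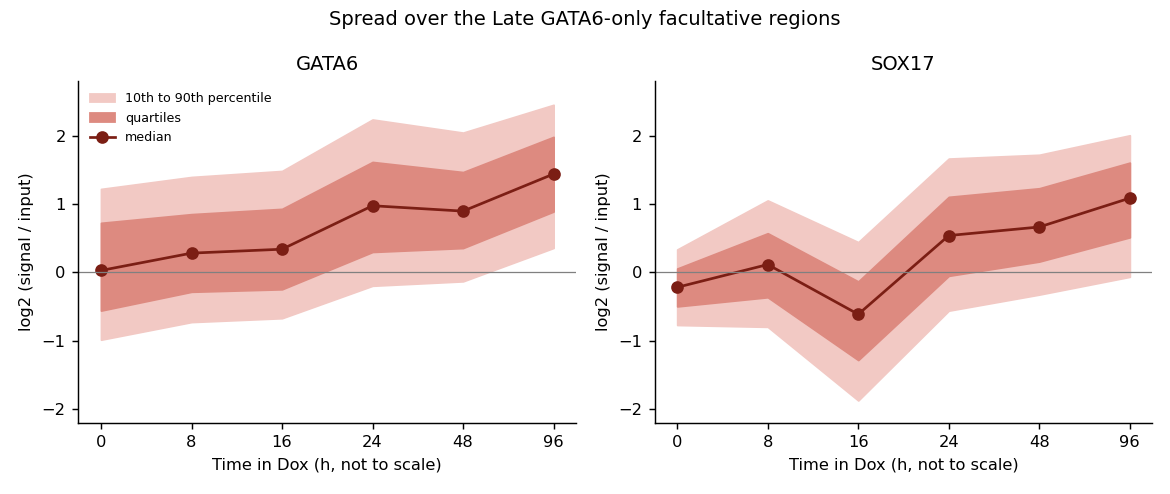
Spread of the log2 ratio of GATA6 (left) and SOX17 (right) signal to input over the 2493 Late GATA6-only facultative regions by time in Dox, with the median as a line and quartiles and the 10th to 90th percentile as bands. The GATA6 median goes from 0.03 at d0 to 1.44 at 96 h and the SOX17 median from -0.22 to 1.09, with wide bands at each time.

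The mark values that placed the regions in facultative heterochromatin were moderate. The median H3K27me3 value from public ES cell data, which has no unit, was 0.870 (quartiles 0.700 and 1.11) in the members against 0.600 over all GATA6 regions. DNase signal was 0.398 against 0.710, and H3K4me1, a mark of enhancers, was 0.589 against 1.00. H3K9me3, the mark of constitutive heterochromatin, had a median of 0.671, compared with 1.08 in the regions of the constitutive state. By H3K27me3 alone the members lay below the regions of the poised enhancer state, whose median was 0.940.

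The term GATA6-only refers to called peaks, and SOX17 signal was not flat at these regions. Its median per kb was 0.704 at d0, 0.772 at 8 h, 0.667 at 16 h, 0.930 at 24 h, 1.07 at 48 h and 1.85 at 96 h. Of the 2493 members, 1670 (67.0%) had more than 2-fold the d0 signal at 96 h. The rise was not particular to the members, since the same share was 73.7% in Late GATA6-only regions of naive chromatin and 50.8% over all GATA6 regions. The median of 1.85 was nevertheless below the 5th percentile (2.69) of the SOX17-bound Late regions of facultative heterochromatin, whose median was 5.38. Above the 10th percentile of that class lay 335 members (13.4%). In terms of the ratio to input, 1356 members (54.4%) exceeded 2-fold at 96 h. That share was 57.9% over all GATA6 regions and 64.5% in Late GATA6-only regions of naive chromatin.

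Factors of the pluripotent state behaved unequally over the same regions. SOX2 signal per kb had a median of 0.698 at d0 and 1.43 at 96 h, a median change of 2.03-fold, and OCT4 signal one of 0.670 and 1.10, a change of 1.62-fold. ESRRB signal was 0.768 at d0 and 0.764 at 96 h, a change of 0.979-fold. Input changed by 1.06-fold between these time points. The median ratio to input went from 0.844 at d0 to 1.68 at 96 h for SOX2 and from 0.821 to 1.28 for OCT4. At 96 h, 36.7% of the members exceeded 2-fold over input for SOX2 and 19.7% for OCT4, so OCT4 stayed close to input in most of them. Both shares were below those of all GATA6 regions, at 47.0% for SOX2 and 39.3% for OCT4. Over all GATA6 regions the median changes were 1.10-fold for SOX2, 1.16-fold for OCT4 and 0.675-fold for ESRRB. The rise was not particular to the members, since the SOX2 and OCT4 changes were 2.18-fold and 1.66-fold in Late GATA6-only regions of naive chromatin and 4.07-fold and 3.12-fold in SOX17-bound Late regions of facultative heterochromatin. The SOX17, SOX2 and OCT4 columns were all higher at 96 h than at d0 in most members, in 94.2%, 89.6% and 83.1% respectively. These columns share the regions and the time point.

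**Figure D2:**
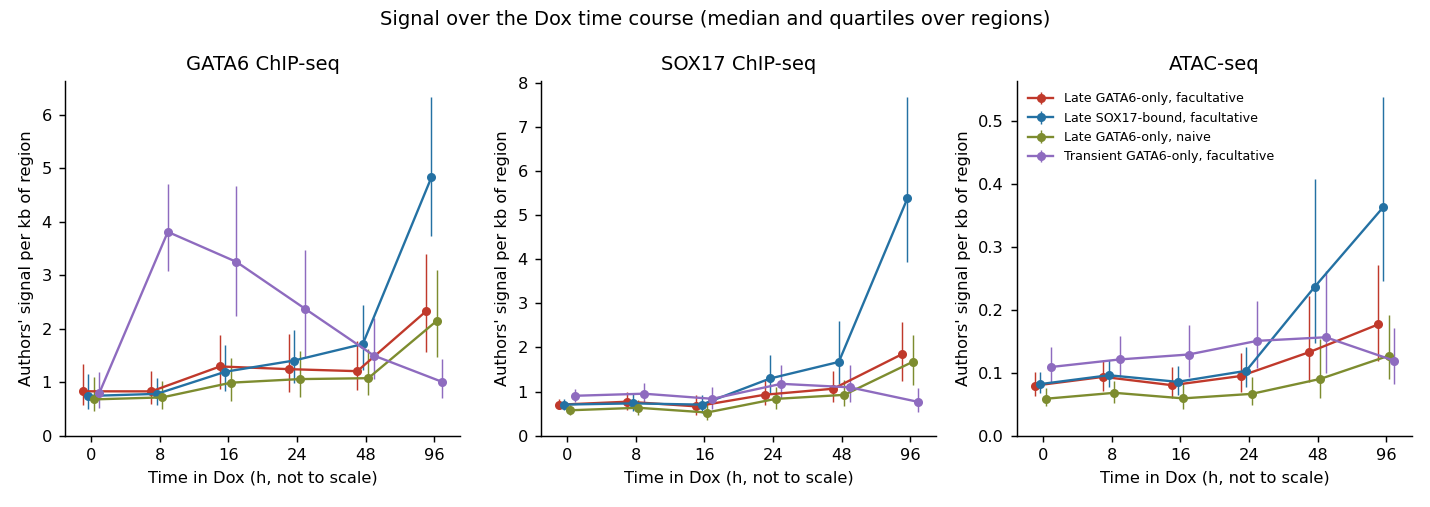
Authors' signal per kb of region for GATA6, SOX17 and ATAC-seq by time in Dox, as the median with quartiles over regions, in the Late GATA6-only facultative regions and the 3 most similar classes. At 96 h the median of the Late GATA6-only facultative regions is 2.33 for GATA6, 1.85 for SOX17 and 0.177 for ATAC-seq, between the SOX17-bound class (4.83, 5.38 and 0.364) and the Transient class (1.01, 0.767 and 0.119).

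The chromatin of these regions was closed before Dox. By the authors' ATAC-seq class at d0, 2461 members (98.7%) were closed, 32 (1.28%) were moderate and none was accessible, which allows a share of up to 0.120%. Over all GATA6 regions, 61.3% were closed. ATAC-seq signal per kb then had a median of 0.0797 at d0, 0.0936 at 8 h, 0.0804 at 16 h, 0.0950 at 24 h, 0.133 at 48 h and 0.177 at 96 h. The change from d0 was 1.70-fold at 48 h and 2.22-fold at 96 h by the median over regions. At 96 h it was 2.17-fold in Late GATA6-only regions of naive chromatin and 1.65-fold over all GATA6 regions. For scale, regions of the moderate class had a median of 0.281 at d0, a level that no member passed at d0, 52 members (2.09%) at 24 h, 424 (17.0%) at 48 h and 580 (23.3%) at 96 h. The median of the accessible class, 0.742, was passed by 45 members (1.81%) at 48 h and by 33 (1.32%) at 96 h.

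Opening differed greatly between members. The intronic region at chr1:165818377-165818882 (nearest protein-coding gene Cd247, 29915 bp), among the 5 with the highest GATA6 value at 96 h, had an ATAC-seq signal per kb of 0.131 at d0, 0.149 at 8 h, 0.165 at 16 h, 0.485 at 24 h, 1.75 at 48 h and 1.07 at 96 h. GATA6 there was 1.29 at d0, 3.10 at 16 h, 3.97 at 24 h, 7.54 at 48 h and 7.89 at 96 h. The promoter region of the non-coding transcript 5033403H07Rik at chr5:52992152-52992824 had an ATAC-seq signal of 0.0845 at d0, 1.05 at 48 h and 0.788 at 96 h, beside a GATA6 signal of 0.485, 3.92 and 6.88. In contrast, the region at chr1:164474858-164475797 (nearest protein-coding gene Atp1b1, 17129 bp) had GATA6 at 2.26 at d0 and 4.98 at 96 h while ATAC-seq went from 0.0865 to 0.177. The 5 regions with the highest 96-h GATA6 value were chosen on the value per region, which grows with region width, and they were 506 to 995 bp wide against a median of 329 bp.

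Within the members, GATA6, SOX17 and ATAC-seq signal per kb at 96 h went together. The Spearman correlation across the 2493 regions was 0.66 for GATA6 with SOX17, 0.57 for GATA6 with ATAC-seq and 0.45 for SOX17 with ATAC-seq, given as a description, since regions share libraries and GATA6 also had a correlation of 0.27 with input. The best GATA6 motif score was almost unrelated to GATA6 signal, with a Spearman correlation of 0.09 over 2233 members. Over 5 equal groups of the score from the lowest to the highest, the median GATA6 signal per kb at 96 h was 2.27, 2.17, 2.29, 2.49 and 2.48. Members with no GATA6 motif (260) still had 2.06, those with 1 motif 2.26, those with 2 motifs 2.36 and those with 3 or more 2.39.

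Motif content came next, because the rule did not use sequence. A GATA6 motif was called in 2233 of 2493 members (89.6%, 95% Wilson interval 88.3 to 90.7), a SOX17 motif in 54.9%, an OCT4:SOX2 motif in 54.8% and an ESRRB motif in 20.7%. Over all GATA6 regions the shares were 89.7%, 69.2%, 71.5% and 36.3% in the same order. The GATA6 share was thus near the background and the other 3 lay below it. Both the GATA6 and the SOX17 motif occurred in 1216 members (48.8%), the GATA6 motif without SOX17 in 1017 (40.8%), the SOX17 motif without GATA6 in 153 (6.14%) and neither in 107 (4.29%). The same combinations made up 62.65%, 27.1%, 6.53% and 3.73% of all GATA6 regions. The members' shares were compared with 3 classes that each differ from the members in 1 part of the rule. The first were 2044 SOX17-bound Late regions in facultative heterochromatin, the second 1171 Late GATA6-only regions in naive chromatin, and the third 1742 Transient GATA6-only regions in facultative heterochromatin. Regions were the units of 24 two-sided Fisher's exact tests adjusted together. The p-values treat regions as independent, although they share libraries and often lie close together, so very small values overstate the evidence. They do not cover the spread between cultures. Standard errors come from leaving out 1 chromosome at a time.

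The SOX17 motif separated the members from the SOX17-bound class. It was present in 54.9% against 79.5%, a difference of -24.6 percentage points (SE 1.25, adjusted p = 1.69e-68 by Fisher's exact test). Against Late GATA6-only regions in naive chromatin (68.3%) the difference was -13.4 points (SE 1.61, adjusted p = 3.20e-14 by Fisher's exact test). Both differences were smaller between regions of like width, at -17.8 points and, more than 1.5 times smaller, -6.86 points. With only best motifs within 100 bp of the summit, the difference from naive chromatin was -2.61 points and no longer passed (adjusted p = 0.174 by Fisher's exact test). Against the Transient class (56.3%) the difference of -1.40 points (95% interval -4.10 to 1.3) did not pass the test, and its sign turned to 4.04 points within bins of width (adjusted p = 0.0193 by a Mantel-Haenszel test, no exact test being used there).

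The GATA6 motif was less frequent in the members than in the Transient class, at 89.6% against 96.3%, a difference of -6.76 points (SE 0.651, adjusted p = 8.45e-17 by Fisher's exact test). The best motif was also weaker, with a mean score of 10.2 against 11.4, a difference of -1.29 (SE 0.0487). Against naive chromatin (93.7%) the share differed by -4.11 points (SE 0.872, adjusted p = 8.41e-05 by Fisher's exact test), but this was lost within bins of width, at -1.52 points, and it turned to 4.97 points when only best motifs within 100 bp of the summit were counted. That count was not made at like width, and with both choices together the difference did not pass. In windows of 1 fixed length around the summit, the letters AGATAA were in 57.6% of the members and 61.9% of naive regions. The SOX17-bound class had a GATA6 motif in 88.4%, which differed by 1.21 points (95% interval -0.525 to 2.95, adjusted p = 0.264 by Fisher's exact test). That difference became 5.53 points within bins of width and then passed the threshold. The members were the narrowest of these classes, with a mean width of 360 bp (SD 131) against 506 bp in the SOX17-bound, 466 bp in the naive and 447 bp in the Transient class, and had 5.74 GATA6 motifs per kb against 4.32, 6.02 and 5.84.

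Matches to OCT4:SOX2, the composite site of both pluripotency factors, were fewer in the members (54.8%) than in the Transient class (70.4%), by 15.6 points (written as -15.6 with the members first, SE 1.28, adjusted p = 3.61e-24 by Fisher's exact test), and by -10.1 points within bins of width. The difference from naive chromatin was -14.9 points (SE 1.49, adjusted p = 2.00e-17 by Fisher's exact test) and was -8.13 points within bins of width and 0.67 points near the summit. That from the SOX17-bound class was -8.28 points (SE 1.79, adjusted p = 3.82e-08 by Fisher's exact test) and turned to 0.851 points within bins of width. ESRRB motifs were at 20.7% against 30.5% in the Transient class (-9.74 points, SE 1.60, adjusted p = 1.85e-12 by Fisher's exact test), with -5.55 points within bins of width and -3.40 points near the summit. The ESRRB difference from the SOX17-bound class, -6.95 points (adjusted p = 1.12e-07 by Fisher's exact test), fell to -0.197 points within bins of width and was lost. That from naive chromatin, -2.92 points, did not pass (adjusted p = 0.0767 by Fisher's exact test).

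**Figure D3:**
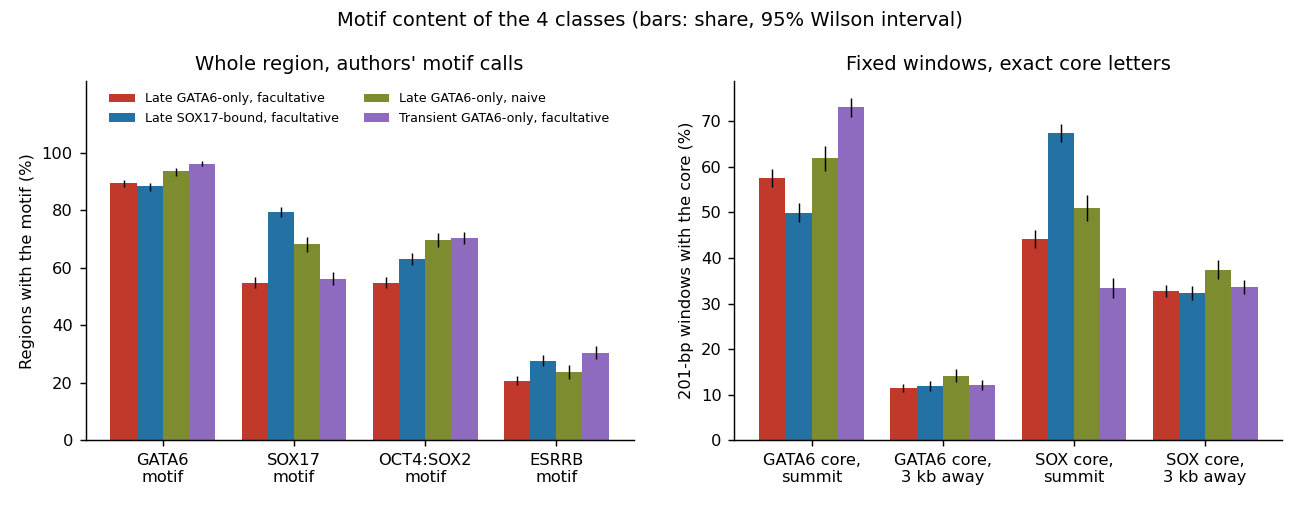
Left, share of regions (%) in each of 4 classes with a motif called by the authors anywhere in the region. Right, share of windows reaching 100 bp to either side with the exact core of the GATA6 motif or of the SOX motif on either strand, at the summit and 3 kb away, where bars are shares with 95% Wilson intervals. The GATA6 core is in 57.6% of the summit windows of the Late GATA6-only facultative regions and in 11.5% of their windows 3 kb away.

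Windows of 1 fixed length avoid the tie to width, so exact letters were counted within 100 bp of each summit. AGATAA, the GATA core, was searched on both strands (TTATCT on the other) and overlaps the GATA6 motif by construction. It was in 1435 members (57.6%, Wilson interval 55.6 to 59.5) and in 11.5% of 4814 windows 3 kb to either side that overlapped no GATA6 region. All GATA6 regions had it in 54.3%, the SOX17-bound class in 49.95%, naive chromatin in 61.9% and the Transient class in 73.0%. Copies at 2 or more places were found in 377 members (15.1%).

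ATTGT, the core of SOX sites (ACAAT on the other strand), which also forms part of the OCT4:SOX2 composite, was in 1100 members (44.1%) and in 32.8% of their windows 3 kb away. The same letters were in 67.5% of SOX17-bound, 50.9% of naive, 33.5% of Transient and 46.6% of all summit windows. The members thus lay between the windows 3 kb away and the SOX17-bound class for the SOX letters, and between the SOX17-bound and the Transient class for the GATA letters. These letter shares were not tested.

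Read along the motif, the best GATA6 hits of the members were looser than those of the Transient class. Of 2198 best motifs of full length in the members, 84.6% held GATA and 57.2% held AGATAA. In the Transient class the shares were 93.4% and 73.3%, in the SOX17-bound class 79.7% and 53.6%, and in naive chromatin 87.2% and 60.1%. The 2198 motifs had 2000 different sequences. Among best SOX17 motifs, ATTGT was in 79.0% of the members' 1369 and in 87.7% of the 1625 of the SOX17-bound class.

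GATA6 motifs clustered at the summit, the base of highest GATA6 signal. The best motif lay at a median of 39 bp from it (quartiles 18 and 78 bp), and 1844 members (74.0%) had it starting within 100 bp. The best SOX17 motif lay at a median of 74 bp in the members and 60 bp in the SOX17-bound class. Within 25 bp of the summit the best SOX17 motif was found in 10.3% of the members and in 18.9% of SOX17-bound regions. In both classes the SOX17 profile was highest in the central bin, and in the members it was lower and flatter.

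**Figure D4:**
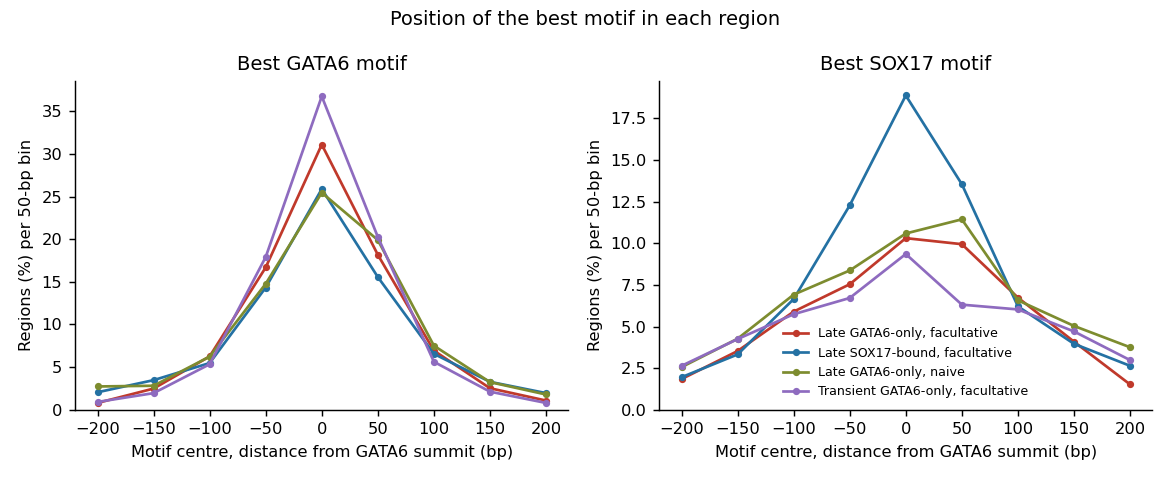
Share of regions (%) per 50-bp bin of distance from the GATA6 summit to the centre of the best GATA6 (left) and best SOX17 motif (right) in 4 classes. In the central bin the Late GATA6-only facultative regions have the best GATA6 motif in 31.1% and the best SOX17 motif in 10.3% of regions.

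Another member with 8 motifs, in an intron of Il33 (a cytokine gene) at chr19:29955151-29956020, had a GATA6 signal per kb of 0.751 at d0 and 3.78 at 96 h, above the 1.27 of the Elp3 flank.

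Base composition differed more from naive chromatin than from the classes of the same histone state. GC content of the summit window was 44.0% in the members, 44.0% in SOX17-bound regions, 40.2% in naive chromatin (a difference of 3.78 points, SE 0.221) and 45.4% in the Transient class (-1.43 points, SE 0.169). CpG dinucleotides numbered 2.02 per window against 2.0, 1.40 and 1.92. Windows 3 kb away from the members had 43.5% GC and 1.98 CpGs. The summit base was soft-masked as a repeat in 287 members (11.5%), and in 26.3% of the windows 3 kb away.

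Summits of 1307 members (52.4%) were in introns, 952 (38.2%) were intergenic, 156 (6.26%) lay within 1 kb of a transcript start and 78 (3.13%) were in exons. The promoter share was 12.4% over all GATA6 regions, and the members differed from no class of the 3 by the exact test, with 5.92% in the SOX17-bound class (difference 0.338 points, 95% interval -0.979 to 1.65), 5.98% in naive chromatin (0.280 points, -1.59 to 2.15) and 4.94% in the Transient class (1.32 points, -0.0504 to 2.69). The median distance to a transcript start was 10780 bp. Another GATA6 region of any class lay within 10 kb of 1231 members (49.4%), and another member within 10 kb of 268 (10.8%). An Early&Constant region was within 50 kb of 1270 members (50.9%), beside 56.4% over all GATA6 regions.

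The closed state at d0 was more frequent in the members than in the Transient class, at 98.7% against 95.6%, a difference of 3.14 points (SE 0.552, adjusted p = 8.05e-10 by Fisher's exact test). It did not pass the test against the SOX17-bound class (98.0%, 95% interval of the difference 0.0669 to 1.38, adjusted p = 0.0873 by Fisher's exact test), where 1.11 points within bins of width did pass. In naive chromatin 99.1% were closed (difference -0.430 points, 95% interval -0.918 to 0.0584).

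Knockdown of Oct4, which encodes the pluripotency factor OCT4, moved GATA6 binding at few of these regions. By the authors' test at 48 h in Dox, binding was raised at 152 members (6.10%, Wilson interval 5.22 to 7.11), where 8.57% of all GATA6 regions were raised, and lowered at 17 members (0.682%), where 6.25% of all regions were lowered. The raised share was therefore near the background and the lowered share below it. The other 2324 members (93.2%) were unchanged by that test, which does not show that binding there was alike with and without OCT4.

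The raised share was far below that of the SOX17-bound class, where 673 of 2044 regions (32.9%) were raised, a difference of -26.8 points (SE 1.5, adjusted p = 1.38e-123 by Fisher's exact test). SOX17-bound regions were also wider (mean 506 against 360 bp) and had more GATA6 signal at 48 h (median 1.71 against 1.21 per kb). The difference was smaller within bins of width and was not taken at like signal, so unequal ease of calling a change was not tested. No region of the Transient class was raised (0 of 1742, which allows up to 0.172%), so the members were 6.10 points above it (SE 0.560, adjusted p = 1.87e-35 by Fisher's exact test). Lowered regions, in turn, made up 5.51% of the Transient class and 0.682% of the members, a difference of -4.83 points (SE 0.604, adjusted p = 1.20e-21 by Fisher's exact test). Against naive chromatin (8.11% raised) the difference of -2.02 points (95% interval -4.04 to 0.0114, adjusted p = 0.0485 by Fisher's exact test) turned to 0.841 points within bins of width and was lost. Lowered shares did not differ by the test from those of the SOX17-bound class (0.636%, interval of the difference -0.587 to 0.678 points) or naive chromatin (0.512%, -0.182 to 0.521 points).

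Raised members were wide and had more SOX17 signal. Of the members up to 271 bp wide 2.25% were raised, and of those over 415 bp 10.7%, so that the raised share moved with width. In the SOX17-bound class the same width bins had 17.6% and 41.8%. In 3 equal groups of rising SOX17 signal per kb at 96 h, the raised share of the members was 1.81%, 5.78% and 10.7%, and with a SOX17 motif it was 7.30% against 4.63% without one. Neither split was made at like width, and members with a SOX17 motif had a median width of 349 bp against 307 bp without one. Why the raised share moved with width was not tested. The 152 raised members had a median GATA6 signal per kb of 3.21 at 96 h, against 2.28 in the unchanged ones, with SOX17 at 2.42 against 1.81 and ATAC-seq at 0.210 against 0.174. At 48 h, when the knockdown was measured, the GATA6 ratio to input was 1.81 in the raised and 1.86 in the unchanged members. In 3 equal groups of rising GATA6 signal per kb at 48 h, 5.90%, 7.34% and 5.05% of the members were raised.

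Of the 17 lowered members, 16 lay in the highest of the 3 equal groups of GATA6 signal per kb at 48 h. Their median GATA6 ratio to input was 5.14 at 48 h and 3.36 at 96 h, where the unchanged members had 1.86 and 2.64. Their ATAC-seq signal at 96 h was 4.25-fold that at d0, against 2.18-fold. The class was called from GATA6 binding at 48 h, so the high 48-h values are not independent of it and show no separate time course. With 17 regions these medians are a description only.

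**Figure D5:**
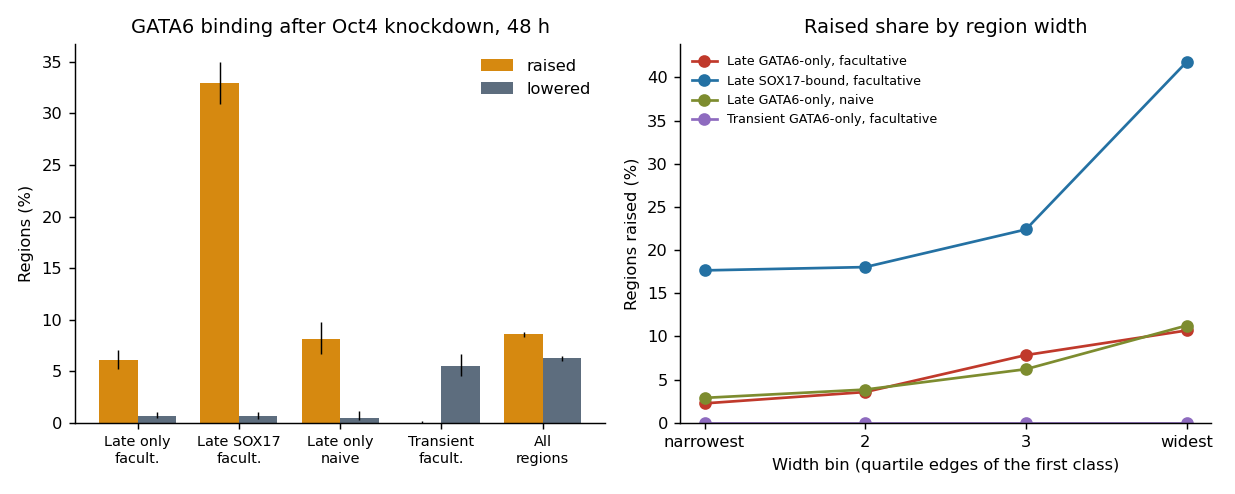
Left, share of regions (%) whose GATA6 binding was raised or lowered by Oct4 knockdown at 48 h, in 4 classes and in all regions, with 95% Wilson intervals. Right, the raised share (%) by region width, in bins with the quartile edges of the Late GATA6-only facultative regions (271, 329 and 415 bp), where it goes from 2.25% to 10.7% in that class and from 17.6% to 41.8% in the SOX17-bound class.

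Genes near the members were read from 5 lists of genes of the PrE, basement membrane, development, signalling and pluripotency, each matched in full to the annotation. A member lay within 20 kb of a transcript start of 5 of 30 extraembryonic endoderm genes (16.7%), 3 of 20 basement membrane genes (15.0%), 3 of 40 developmental regulators (7.50%), 3 of 30 signalling genes (10.0%) and 2 of 20 pluripotency genes (10.0%). Over all 21829 protein-coding genes the share was 5.33%. GATA6 regions of any kind were also dense near most of these lists, at 28 of 30, 18 of 20, 22 of 40, 25 of 30 and 20 of 20 genes in the same order against 56.6% of all genes, so the members' shares cannot be read as particular to this class.

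Among PrE genes, an intronic member of Pdgfra, the PDGF receptor that marks PrE, lay 2157 bp from its start at chr5:75159431-75159806. GATA6 signal per kb there was 0.869 at d0, 0.790 at 8 h, 1.70 at 16 h, 1.68 at 24 h, 1.44 at 48 h and 4.47 at 96 h, and ATAC-seq went from 0.122 to 0.511. The member nearest to Foxa2, a forkhead factor of the endoderm, lay 10272 bp away at chr2:148035561-148035972, inside the non-coding gene 9030622O22Rik, and had a GATA6 signal of 0.396 at d0 and 1.66 at 96 h, despite a best motif score of 14.6. Srgn, which encodes the proteoglycan serglycin, had a member 13523 bp from its start with 2.13 at d0 and 5.93 at 96 h, and Plat, tissue plasminogen activator, one at 12760 bp with 0.732 and 2.45. At Clic6, a chloride channel gene, the member 1570 bp from the start had 1.74 and 2.78, but input there went from 0.968 to 1.60, and the ratio to input was 1.79 at d0 and 1.74 at 96 h. At the other 4 genes the ratio to input was higher at 96 h than at d0.

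Basement membrane genes, whose products form the matrix that endoderm lays down, had members at Nid2 (nidogen, 16911 bp away) and Plod2 (a lysyl hydroxylase, 7982 bp), among others. GATA6 signal at d0 and 96 h was 0.996 and 3.52 at Nid2 and 1.73 and 2.38 at Plod2. In terms of the ratio to input, Nid2 went from 1.48 to 2.79, whereas Plod2 was at 2.02 at d0 and 1.83 at 96 h. The best GATA6 motif scored 14.6 at Nid2 and 10.1 at Plod2.

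Developmental regulators are the usual targets of Polycomb silencing. The Isl1 member, for a LIM homeodomain factor, lay in an intron, 7521 bp from a protein-coding start, with GATA6 at 2.04 at d0 and 4.51 at 96 h. The Nkx2-5 member, near a gene of the heart programme, had no GATA6 motif and still had 0.860 at d0, 0.837 at 8 h, 5.06 at 16 h, 5.35 at 24 h, 4.15 at 48 h and 5.98 at 96 h, a series already high at 16 h.

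Signalling genes with a member were the ligands Kitl (4707 bp), Fgf10 (3652 bp) and Bmp6 (13863 bp). GATA6 was 0.320 at d0 and 1.84 at 96 h at Kitl and 0.712 and 2.41 at Bmp6. At Fgf10 it was 0.460 at d0, 3.46 at 24 h and 2.37 at 96 h, a peak before the last time point. Klf4 and Tet1, a pluripotency factor and a DNA demethylase, had members 4554 bp and 18622 bp away, which went from 1.80 to 4.73 and from 0.491 to 4.29. The Tet1 member was nearer to a start of Ccar1 (3631 bp).

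The best motifs of some of these members are shown to compare the letters at genes of known function, again with the motif in capitals and on its own strand. They lie at chr2:148035714-148035756 (Foxa2, minus), chr5:75159521-75159563 (Pdgfra, minus), chr14:19734435-19734477 (Nid2, minus), chr13:116301857-116301899 (Isl1, minus), chr10:100020574-100020616 (Kitl, minus) and chr4:55537083-55537125 (Klf4, minus).
Foxa2: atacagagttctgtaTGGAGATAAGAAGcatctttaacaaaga
Pdgfra: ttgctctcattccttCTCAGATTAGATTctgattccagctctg
Nid2: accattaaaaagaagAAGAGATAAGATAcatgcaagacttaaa
Isl1: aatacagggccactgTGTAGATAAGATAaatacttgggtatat
Kitl: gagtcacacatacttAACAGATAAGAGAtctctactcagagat
Klf4: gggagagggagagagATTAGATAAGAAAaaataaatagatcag

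Foxa2, Nid2, Isl1, Kitl and Klf4 share AGATAAGA, whereas the Pdgfra hit reads AGATTAGA, with a score of 9.04. The Pdgfra region nonetheless had the higher 96-h GATA6 signal of Foxa2 and Pdgfra, at 4.47 against 1.66.

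The protein-coding genes with the most member summits within 100 kb of a transcript start were Arhgap31 (a GTPase-activating protein), B4galt4 (a galactosyltransferase) and Upk1b (a uroplakin), neighbours on chromosome 16, and Cd93 and Thbd, neighbours on chromosome 2 that encode surface proteins of the endothelium, each with 7. They were followed by 4930435E12Rik, also beside the chromosome 16 genes, Abcd3, Pcgf5 and Pgm2l1 with 6 each and Asb17 with 5. Neighbouring genes share members, so these 10 names stand for fewer groups of regions. Of the genes with 5 or more, 21 in all, only the first 10 by number and symbol are named. Thbd, thrombomodulin, which is in the list of extraembryonic endoderm genes, had its nearest member 31623 bp away, and 13 GATA6 regions of all classes lay within 100 kb of it. Pcgf5, which encodes a Polycomb subunit, had a member 11584 bp from a start and 13 GATA6 regions in the same span.

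By chromosome, the members' share of GATA6 regions was 2.83% on X (35 of 1238) and 3.93% to 8.07% on the autosomes, highest on chromosome 19 (106 of 1313).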

How the data were processed

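Regions were taken from the deposited table of 42403 GATA6 regions. According to the methods and labels, the authors aligned reads with Bowtie2 to mm10, merged the GATA6 replicates for MACS2 and kept a peak if each single replicate also had it. The deposited ChIP-seq, input and ATAC-seq values are signal per region corrected for library size by the authors, with a scale not given in the sources used here. They grow with region width, and were divided by it. They were matched to the 6 groups by the time point in the column name and come from other assays than the MNase libraries. The deposited motif score is the FIMO match score of the best hit. Not used were 10 columns of other cells or knockdowns and 12 columns that group motif values. The Oct4 class came from DESeq2 run by the authors. Positions were read from GRCm38 (mm10) and GENCODE M21.

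Shares were compared by Fisher's exact test over 24 tables with Benjamini-Hochberg adjustment, and Mantel-Haenszel estimates in 10 width bins. The code was tested on simulated data. The members and lists were chosen with earlier results of these data known. Wilson intervals cover counting error only, and intervals of differences rest on standard errors from leaving out 1 chromosome at a time. Named regions were the 5 members with the highest GATA6 score, the 3 with the most motifs, the 5 with the highest 96-h GATA6 value and members within 20 kb of a listed gene (some of these are not reported here), and named genes were the 10 with most members within 100 kb. Alternatives are given in the closing section. Python 3.11.15, numpy 2.4.6, pandas 2.3.3 and scipy 1.17.1 were used.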

Additional observations from a re-analysis of the deposited data

Results flagged for a closer look

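The response of GATA6 binding to Oct4 knockdown differed between these regions and 2 of the 3 like classes by Fisher's exact test of the difference, where 6.10% of these regions and 8.57% of all GATA6 regions were raised. The raised share of Late GATA6-only facultative regions minus that of SOX17-bound Late regions of the same histone state was -26.8 percentage points (adjusted p = 1.38e-123, exact test), and minus that of the Transient class it was 6.10 points (adjusted p = 1.87e-35, exact test). The lowered share minus that of the Transient class was -4.83 points (adjusted p = 1.20e-21, exact test). Within bins of region width these were -19.6, 7.37 and -4.14 points. None of them was taken at like GATA6 signal. Against naive chromatin the raised share differed by -2.02 points, which turned to 0.841 points within bins of width and was lost, and the lowered share did not pass the test (adjusted p = 0.723, exact test).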

How the results depend on the processing

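No paired analysis was possible because no column used carries a replicate number. Of 130 alternative values, 95 kept their direction and their side of the threshold (without a test, stayed inside the 95% interval of the difference), among them all 24 comparisons without chromosome X and all 24 on regions closed at d0. Differences below are members minus the class, in percentage points, and their cause was not tested.

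Within 10 bins of width, the GATA6 motif differed by 5.53 from SOX17-bound regions, past the threshold, and by -1.52 from naive chromatin, no longer past it. The SOX17 motif turned to 4.04 against the Transient class. OCT4:SOX2 turned to 0.851 and ESRRB was lost at -0.197 against SOX17-bound regions, and ESRRB turned to 1.83 against naive chromatin. Closed at d0 passed against SOX17-bound regions at 1.11, and raised by Oct4 knockdown turned to 0.841 against naive chromatin.

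With best motifs starting within 100 bp of the summit only, GATA6 was 11 against SOX17-bound regions (now past the threshold) and turned to 4.97 against naive chromatin, SOX17 was lost at -2.61 against naive chromatin and turned to 6.69 against the Transient class, OCT4:SOX2 turned to 3.54 (SOX17-bound) and 0.670 (naive), and ESRRB to 0.833 and 0.592. Both choices together were added after seeing the data. GATA6 was then 4.70 (SOX17-bound, passing) and -0.875 (naive, lost), SOX17 turned to 4.71 (Transient), OCT4:SOX2 was lost at -0.312 and -3.45, and ESRRB turned to 0.713 and 0.630 (SOX17-bound and naive).

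The mean of all GATA6 scores turned to 0.054 against naive chromatin and was -0.762 against the Transient class, and that of SOX17 scores was -0.231 against SOX17-bound regions and 0.0587 against naive chromatin. In regions of the members' middle widths the GATA6 score differed by 0.444 (SOX17-bound) and -0.0698 (naive). Motifs per kb in regions with a motif differed by 0.338 from the Transient class, and GC content of a wider window by -0.601 from SOX17-bound regions. Distances to protein-coding starts differed by 3064, -6637 and -8891 bp. Within 50 kb, 3 of the 10 named genes stayed among the first 10. Depth behind the regions is unknown.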
